A study of Mus musculus with 33 samples.

Results

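The genes described here are 35 mouse genes that act in the G2 phase of the cell cycle and in mitosis, taken by gene symbol from the 54532 rows of a table of RNA-seq read counts. All 35 symbols were found, each in 1 row, and all 35 passed the filter on low counts in every comparison. They are followed through 32 mouse mammary tumours, which carry the genotype label FVB throughout. The design text of the series describes tumours of cyclin E transgenic mice treated with an inhibitor of PKMYT1, and a comparison with PyMT tumours. PKMYT1 is a membrane-bound kinase that keeps CDK1 inactive by phosphorylation, and RP-6306 is the inhibitor used.

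Titles and treatment fields gave 6 groups. In the set whose titles end in _7, 3 tumours received vehicle (VEH_7) and 4 received RP-6306 (M20_7). Without that suffix, 4 tumours received vehicle (VEH) and 11 received RP-6306 (MYT). The remaining groups, SPON with 5 tumours and WT with 5, carry the treatment label None. The dose label is 20 mg/kg, and the protocol and the treatment field disagree on whether it was given per day or more often. Nothing in the labels explains the suffix, SPON or WT, or states which promoter drives the transgene, which tumours were PyMT tumours, or whether tumours of a group came from separate animals. The protocol text on transplantation is attached to all samples, the SPON and WT tumours included. A sample whose title says vehicle and whose treatment field says RP-6306 was left out.

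As background, entry into mitosis depends on CDK1 bound to a B-type cyclin, which PKMYT1 and WEE1 hold back. The messenger RNAs of many mitotic proteins rise together in G2, when the transcription factors MYBL2 (B-MYB) and FOXM1 act on their promoters, and fall after division, so their level in a tissue is commonly read as a measure of how many cells are cycling. In bulk tumour RNA, fewer cycling cells and less RNA per cycling cell cannot be told apart.

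Libraries of VEH_7 and M20_7 held 26517748 to 34637096 counts and those of the other 4 groups held 13701115 to 20105407. Values are given in CPM, read counts divided by library size after scaling with edgeR's TMM factors. The 10 luminal epithelial markers summed to 21.7 to 87.4 CPM in VEH_7 and M20_7, to 617 to 1809 in VEH, and to 4031 to 11095 in MYT, SPON and WT. The 12 mesenchymal and fibroblast markers ran the other way, at 14710 to 23480 CPM in VEH_7, M20_7 and VEH and 798 to 5364 in the other groups. No marker of either list was at 0 in a whole group, and 3 of the 10 luminal markers averaged under 1 CPM in VEH_7 and in M20_7. In 3 libraries, SPON 1, SPON 5 and WT 2 (numbers name replicates within a group), mitochondrially encoded genes took 20.0%, 23.6% and 7.75% of the counts, against 1.27% to 5.02% in the other 29. A length trend was also taken, the median log2 deviation from the group mean in long minus short expressed genes. It was -0.435 in SPON 1, 0.376 in SPON 2, -0.033 in SPON 3, 0.370 in SPON 4 and -0.325 in SPON 5. Outside SPON, MYT 7 had -0.374.

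Promoter sequence is a feature that the choice of these genes did not use. RefSeq promoter windows (GRCm38.p6, 250 bases before to 50 after the start site) were at hand for 29 of the 35 genes. The letters CCAAT, the core of the motif bound by NF-Y, were found on either strand in windows of 21 of these 29 genes (72.4%), against 41.06% of the 27025 genes with a window. The letters TTTGAA or TTCGAA, the form of the cell cycle genes homology region through which MYBL2 and FOXM1 complexes contact such promoters, were found in 22 (75.9%), against 21.66% of all genes. Both motifs stood together in windows of 19 (65.5%), against 8.614% of all genes. The E2F-type letters TTTGGCGC or TTTCGCGC were found in none of the 29 and in 0.9288% of all genes, which says only that those exact letters are not in these windows. Both strands were searched for each motif, matches of CCAAT and TTTGAA shared a base only in Cdca8, and a match describes letters and not a bound site.

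The windows of 4 genes are shown over the 250 bases before the start site, 5′ to 3′ on the strand of the gene, with CCAAT (or ATTGG) and TTTGAA or TTCGAA (or TTCAAA) in capitals. Top2a (chr11:99024190-99024439, minus strand) is shown for the many copies of both motifs. Mki67 (chr7:135716380-135716629, minus strand) and Ckap2l (chr2:129297213-129297462, minus strand) are shown as genes with both motifs. Anln (chr9:22389207-22389456, minus strand) is shown because its level relative to the other genes varied most between groups, and it has neither motif in these bases.
Top2a: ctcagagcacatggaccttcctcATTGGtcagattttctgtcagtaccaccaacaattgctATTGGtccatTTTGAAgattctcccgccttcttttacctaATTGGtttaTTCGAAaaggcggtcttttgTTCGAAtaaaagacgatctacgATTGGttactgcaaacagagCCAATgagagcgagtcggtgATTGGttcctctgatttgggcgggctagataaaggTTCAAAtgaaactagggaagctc
Mki67: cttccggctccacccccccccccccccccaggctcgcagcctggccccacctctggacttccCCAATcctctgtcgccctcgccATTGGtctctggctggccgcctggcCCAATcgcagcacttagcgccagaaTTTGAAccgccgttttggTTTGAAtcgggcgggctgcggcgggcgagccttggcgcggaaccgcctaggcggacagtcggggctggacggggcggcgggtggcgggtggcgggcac
Ckap2l: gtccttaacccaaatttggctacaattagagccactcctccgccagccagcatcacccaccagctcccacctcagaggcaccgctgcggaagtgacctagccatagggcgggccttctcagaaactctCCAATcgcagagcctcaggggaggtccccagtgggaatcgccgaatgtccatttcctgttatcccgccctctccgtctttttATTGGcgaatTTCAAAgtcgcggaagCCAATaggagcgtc
Anln: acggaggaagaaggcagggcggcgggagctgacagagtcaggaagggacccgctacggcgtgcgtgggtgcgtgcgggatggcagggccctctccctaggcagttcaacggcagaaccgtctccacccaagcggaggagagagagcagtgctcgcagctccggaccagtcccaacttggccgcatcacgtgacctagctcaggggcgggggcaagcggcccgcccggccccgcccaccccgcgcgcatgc
Top2a holds 6 copies of CCAAT or its reverse, the nearest beginning 58 bases before the start site, and 4 of TTTGAA or TTCGAA or their reverse. In Ckap2l a reversed TTTGAA begins at base -30, between copies of CCAAT beginning at -40 and -14. The window of Anln holds TTTGAA only after the start site, at bases 22 (reversed) and 29, and no CCAAT.

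Averaged over the 35 genes as log2(CPM + 1), the level was highest in MYT and lowest in WT. The means over tumours were 6.46 ± 0.25 in MYT (SD, n = 11), 6.32 ± 0.34 in SPON (n = 5), 6.24 ± 0.25 in M20_7 (n = 4), 6.15 ± 0.26 in VEH_7 (n = 3), 5.48 ± 0.37 in VEH (n = 4) and 5.09 ± 0.41 in WT (n = 5). The 4 highest groups overlapped one another. VEH, from 5.03 to 5.91, overlapped WT, from 4.77 to 5.77. VEH reached VEH_7 (5.86 to 6.32) and M20_7 (5.90 to 6.47) only through its tumour VEH 4. Within groups a few tumours set the extremes. WT 5 was the highest WT tumour for 32 of the 35 genes, VEH 4 the highest VEH tumour for 31, VEH 3 the lowest for 31, VEH_7 2 the lowest of its group for 33 and M20_7 1 the lowest of its group for all 35. In MYT, MYT 7 was highest for 17 genes, MYT 6 for 11, and MYT 5 was lowest for 20. In SPON, SPON 2 was highest for 20 genes and SPON 1 lowest for 18.

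**Figure D1:**
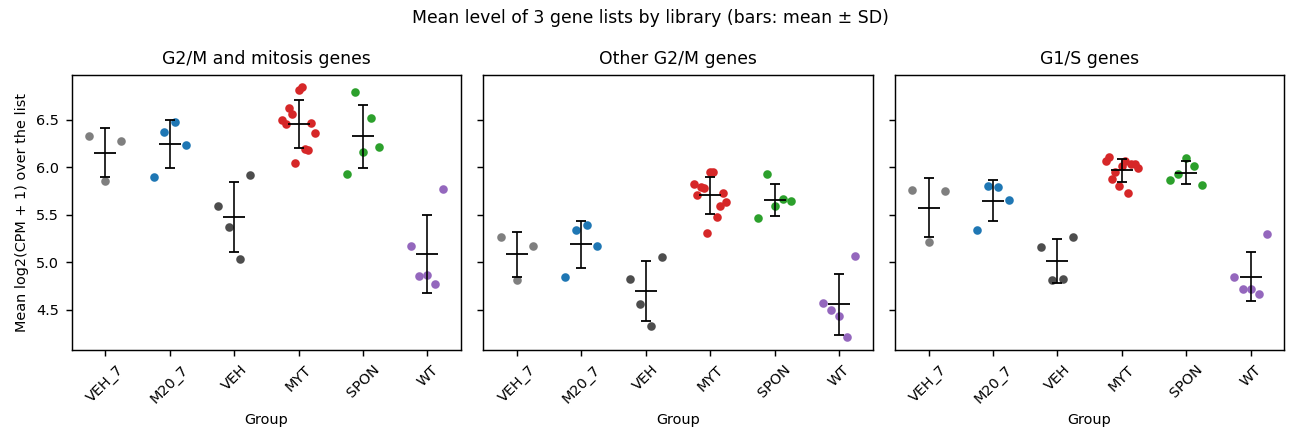
Mean log2(CPM + 1) of the 35 genes, of 72 other G2/M genes and of 36 G1/S genes in each of the 32 tumours (points), with the mean and SD of each group (bars). For the 35 genes MYT lies at 6.46 ± 0.25 and VEH at 5.48 ± 0.37, while VEH_7 and M20_7 overlap.

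Levels of different genes were compared per kilobase of exon, merged over all annotated transcripts of a gene. That length can exceed the length of the transcript expressed, so the order is approximate. The mean over the 6 groups was highest for Ube2c (61.0 CPM per kb), Cdc20 (57.5), Ccna2 (38.2) and Mki67 (34.3). It was lowest for Ttk (4.22), Dlgap5 (4.70) and Mybl2 (5.12). The order differed between groups. Cdc20 was highest per length in VEH_7, M20_7 and VEH, and Ccna2 exceeded Ube2c in VEH_7 (49.6 against 36.1 CPM per kb) and M20_7 (54.6 against 42.5). Ube2c was highest in MYT, SPON and WT, and its SPON mean includes SPON 5, at 752 CPM. The lowest was Dlgap5 in VEH_7 and M20_7, Cenpf in VEH, Ttk in MYT and Mybl2 in SPON and WT.

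**Figure D2:**
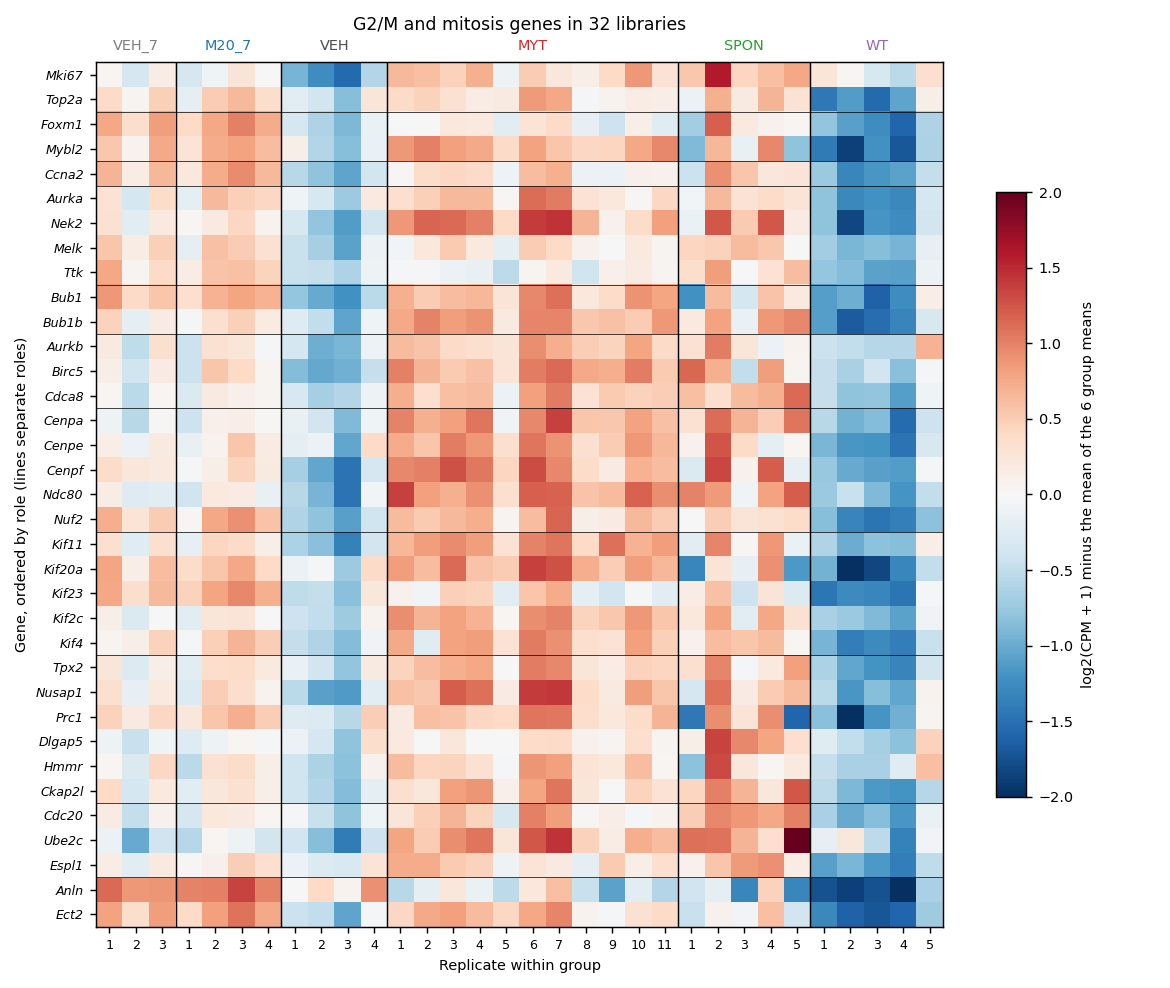
Each of the 35 genes (rows, grouped by role) in each of the 32 tumours (columns), as log2(CPM + 1) minus the mean of the 6 group means of that gene, from -2 (blue) to 2 (red). Most rows are blue in VEH and WT and red in MYT and SPON, and Anln is red in VEH_7 and M20_7 and blue in WT.

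Mki67 encodes the Ki-67 protein that coats mitotic chromosomes and is the usual proliferation marker. It was at 320.4, 248 and 347 CPM in VEH_7 and 248, 294, 374 and 315 CPM in M20_7. It was at 164, 131, 106 and 208 CPM in VEH and 293 to 569.8 CPM (median 433) in MYT. SPON tumours had 457, 942, 423, 474 and 536 CPM and WT tumours 369, 323, 249.5, 215 and 395 CPM. Every VEH tumour lay below every tumour of the other 5 groups, and WT overlapped VEH_7, M20_7 and MYT but not SPON. Top2a, the topoisomerase that untangles sister chromatids, averaged 198 ± 61.5 CPM in VEH (SD, n = 4), 297 ± 63.0 in MYT (n = 11), 306 ± 73.4 in SPON (n = 5) and 128 ± 71.7 in WT (n = 5). Its WT mean was raised by WT 5, at 254 CPM, while the other 4 WT tumours lay at 79.1 to 113.

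Of the transcription factors, Mybl2 was at 30.2, 21.6 and 35.1 CPM in VEH_7 and 24.9, 35.1, 36.7 and 31.9 CPM in M20_7. It was at 22.3, 13.3, 10.9 and 18.5 CPM in VEH and 26.8 to 42.3 CPM (median 35.7) in MYT. The SPON tumours had 10.6, 32.9, 18.5, 40.6 and 11.3 CPM and the WT tumours 7.07, 4.88, 8.22, 5.59 and 12.8 CPM. MYT lay wholly above VEH, and SPON 1 and SPON 5 were within the WT range. Foxm1 averaged 163 ± 28.2 CPM in VEH_7 (SD, n = 3), 172 ± 29.1 in M20_7 (n = 4), 73.8 ± 16.8 in VEH (n = 4), 126 ± 65.4 in SPON (n = 5) and 49.9 ± 13.0 in WT (n = 5), and ran from 76.4 to 134 CPM (median 103) in the 11 MYT tumours. Unlike those of Mybl2, its group means were highest in the set titled _7. The lowest tumour of that set, at 131 CPM, exceeded all but 1 of the MYT tumours. The highest single tumour for Foxm1 was SPON 2, at 237 CPM. Ccna2, the cyclin A2 that pairs with CDK2 and CDK1 in S phase and G2, was at 227, 157 and 223 CPM in VEH_7 and 163, 237, 271 and 220.4 CPM in M20_7. It was at 96.1, 80.3, 67.2 and 109 CPM in VEH and 129.5 to 232 CPM (median 151) in MYT. SPON tumours had 104, 266, 206, 165 and 169 CPM and WT tumours 83.9, 56.4, 62.1, 66.4 and 101 CPM. VEH and WT overlapped each other and lay below all MYT, VEH_7 and M20_7 tumours.

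Among the kinases, Aurka, the kinase of centrosomes and spindle poles, was at 45.5, 38.6, 29.0 and 55.8 CPM in VEH and 49.3 to 106 CPM (median 65.2) in MYT. In SPON it was at 46.4, 76.7, 59.5, 62.9 and 58.4 CPM and in WT at 27.3, 19.2, 20.3, 19.2 and 37.7 CPM. SPON lay wholly above WT, and MYT overlapped VEH through MYT 5 and MYT 10. Bub1b, whose product BUBR1 is part of the checkpoint that delays anaphase, was at 63.1, 53.5, 35.7 and 70.6 CPM in VEH and 85.9 to 150.4 CPM (median 136) in MYT. In SPON it was at 86.7, 133, 68.7, 139 and 148 CPM and in WT at 34.5, 23.0, 25.6, 29.5 and 60.2 CPM. Neither pair of groups overlapped. Aurkb and Birc5 belong with Cdca8 to the chromosomal passenger complex, which corrects faulty kinetochore attachments, and Birc5 encodes survivin. Birc5 was at 47.7, 42.6, 44.8 and 63.8 CPM in VEH and 107 to 194 CPM (median 146) in MYT, without overlap. In SPON it was at 195, 145, 62.2, 158 and 91.3 CPM and in WT at 63.5, 55.7, 67.0, 48.7 and 85.4 CPM, where SPON 3 alone fell within the WT range. Aurkb averaged 33.6 ± 10.3 CPM in VEH (SD, n = 4), 72.6 ± 11.1 in MYT (n = 11), 63.5 ± 21.6 in SPON (n = 5) and 43.3 ± 20.8 in WT (n = 5), with WT 5 at 80.4 CPM above the other WT tumours at 32.7 to 36.2.

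Of the centromere and kinetochore genes, Ndc80 encodes the outer kinetochore subunit that grips microtubules. It was at 36.4, 27.5 and 28.4 CPM in VEH_7 and 24.8, 37.7, 37.0 and 29.7 CPM in M20_7. It was at 22.2, 16.9, 11.3 and 31.6 CPM in VEH and 41.4 to 86.2 CPM (median 62.9) in MYT. SPON tumours had 66.5, 60.2, 31.4, 58.5 and 77.3 CPM and WT tumours 19.4, 23.9, 17.4, 13.9 and 23.2 CPM. MYT lay above all VEH, VEH_7 and M20_7 tumours, and SPON lay above all WT tumours. Cenpa, the histone H3 variant that marks centromeres, averaged 85.8 ± 19.9 CPM in VEH (SD, n = 4), 189 ± 46.5 in MYT (n = 11), 185 ± 45.6 in SPON (n = 5) and 61.0 ± 17.2 in WT (n = 5).

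Kif11 encodes the kinesin Eg5 that pushes spindle poles apart. It was at 36.1, 31.0, 21.3 and 43.3 CPM in VEH and 68.6 to 121 CPM (median 102) in MYT. SPON tumours had 48.6, 112, 57.1, 103 and 51.1 CPM and WT tumours 36.6, 27.9, 31.4, 30.7 and 62.0 CPM. MYT lay wholly above VEH, and SPON overlapped WT only through WT 5. Kif20a, the kinesin that carries the passenger complex to the central spindle, was at 42.3, 45.1, 27.5 and 60.5 CPM in VEH and 65.6 to 121 CPM (median 76.6) in MYT. SPON tumours had 18.1, 56.0, 41.1, 88.2 and 20.4 CPM and WT tumours 23.5, 6.44, 12.4, 17.98 and 32.5 CPM. SPON 1 and SPON 5, the SPON libraries with the large mitochondrial shares, were the lowest of their group for Kif20a, and WT 2 was the lowest of the WT tumours. Prc1, the microtubule bundler of the central spindle, had the same pattern. It was at 21.7, 115, 71.8, 114 and 19.2 CPM in SPON and 32.9, 10.7, 25.9, 30.3 and 62.3 CPM in WT. It was at 49.6, 49.1, 40.2 and 84.2 CPM in VEH and 67.8 to 126 CPM (median 80.4) in MYT. For Prc1 too, SPON 1, SPON 5 and WT 2 were the lowest of their groups. Tpx2, which activates Aurora A on the spindle, averaged 87.5 ± 24.1 CPM in VEH (SD, n = 4), 153 ± 34.7 in MYT (n = 11), 147 ± 44.4 in SPON (n = 5) and 56.2 ± 16.5 in WT (n = 5).

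Cdc20, the activator of the anaphase-promoting complex, was at 97.1, 72.9, 56.5 and 93.8 CPM in VEH and 79.1 to 201 CPM (median 118) in MYT. SPON tumours had 139.7, 193, 181, 170.0 and 201 CPM and WT tumours 62.9, 49.1, 54.8, 43.7 and 90.0 CPM. SPON lay wholly above WT, whereas MYT overlapped VEH through MYT 5, at 79.1 CPM. Ube2c, the ubiquitin-conjugating enzyme of the same complex, was at 119.5, 64.1 and 98.2 CPM in VEH_7 and 87.3, 134, 121 and 101 CPM in M20_7. It was at 99.5, 71.1, 48.3 and 96.9 CPM in VEH and 143 to 354 CPM (median 214) in MYT. SPON tumours had 278, 275, 209, 165 and 752 CPM and WT tumours 115, 151, 90.0, 50.3 and 125 CPM. SPON 5 was the highest of all 32 tumours for Ube2c, and neither MYT and VEH nor SPON and WT overlapped. Espl1, the separase that cuts cohesin, averaged 58.1 ± 11.6 CPM in VEH (SD, n = 4), 79.5 ± 16.8 in MYT (n = 11), 91.0 ± 23.6 in SPON (n = 5) and 30.9 ± 7.64 in WT (n = 5).

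The cytokinesis genes behaved differently from each other. Anln encodes anillin, the scaffold of the contractile ring, and was at 217, 179 and 183 CPM in VEH_7 and 197, 199, 252 and 197 CPM in M20_7. It was at 98.2, 130.5, 103 and 186 CPM in VEH and 46.4 to 149.7 CPM (median 83.7) in MYT. SPON tumours had 74.2, 85.8, 39.4, 135 and 39.4 CPM and WT tumours 28.7, 26.3, 28.9, 23.6 and 62.4 CPM. The set titled _7 was highest, MYT lay partly below VEH, and WT was lowest. Ect2, the exchange factor that switches on RhoA at the division plane, averaged 93.2 ± 16.8 CPM in VEH_7 (SD, n = 3), 42.0 ± 12.2 in VEH (n = 4), 84.2 ± 18.3 in MYT (n = 11), 58.4 ± 18.5 in SPON (n = 5) and 22.4 ± 7.53 in WT (n = 5).

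**Figure D3:**
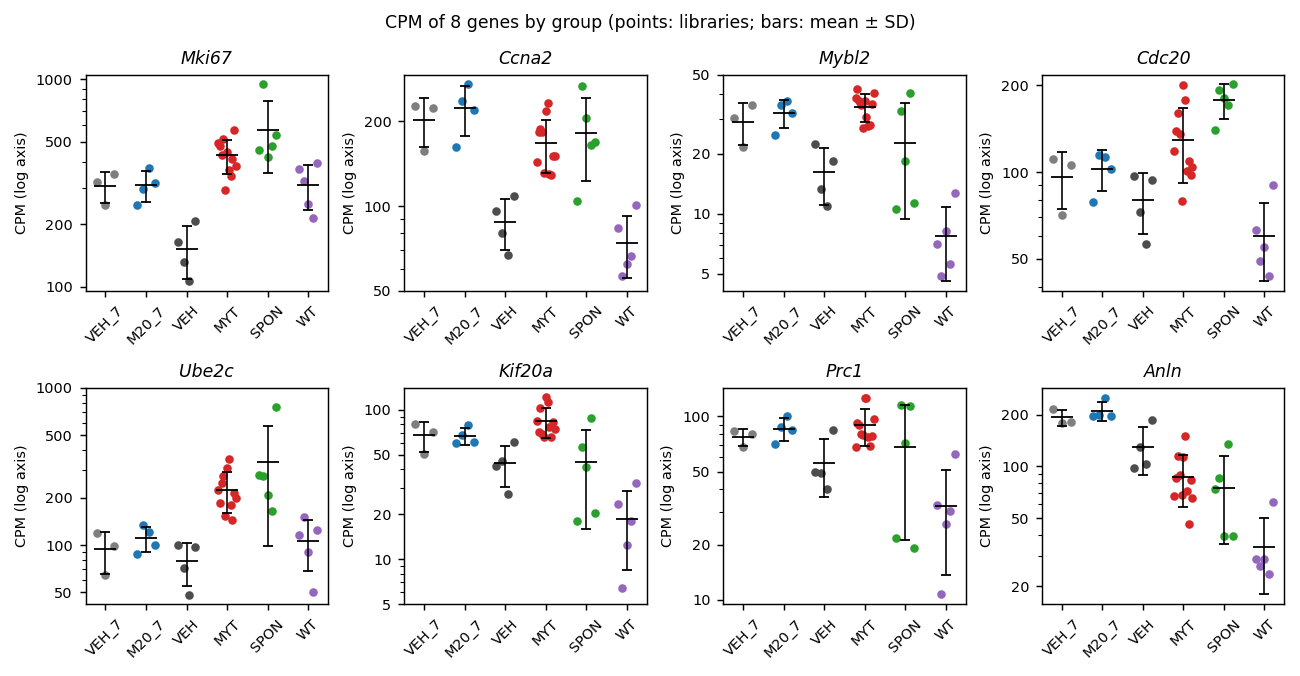
CPM of 8 of the genes on a log axis in each tumour (points) of the 6 groups, with the mean and SD of each group (bars). MYT lies above VEH without overlap for Mki67, Ccna2, Mybl2, Ube2c and Kif20a, and Anln is highest in VEH_7 and M20_7.

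In tumours without the suffix, mitotic genes were broadly higher in MYT, the RP-6306 group, than in VEH. Of the 35 genes 32 were higher in MYT than in VEH by edgeR's quasi-likelihood test (Benjamini-Hochberg adjusted p under 0.05 over 16021 genes) and 0 were lower. The median log2 difference was 1.03, against 0.04 over all genes tested. The background was wide, since 59.5% of all genes tested passed in this comparison, 30.5% higher and 29% lower. The groups did not overlap, with MYT higher, for 18 of the 35 genes and for 16.2% of all genes. Marker levels of several cell types also differed between these groups. Beside the luminal and mesenchymal sums given above, the 8 macrophage markers summed to 1956 to 2733 CPM in VEH and 581 to 1235 in MYT, and the 7 endothelial markers to 258 to 383 and 78.1 to 168. The 6 skeletal muscle markers summed to 70.6 to 942 CPM in VEH and 0.742 to 6.29 in MYT, and the 6 neutrophil markers to 15.7 to 77.2 and 95.3 to 209. The part of these cells in the result was not tested, and treatment and tumour make-up cannot be told apart in this comparison.

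The largest log2 differences were those of Cenpf (1.71 ± 0.24 (SE), edgeR adjusted p = 1.12e-05), a large kinetochore and matrix protein, Ndc80 (1.65 ± 0.24, 1.94e-05) and Birc5 (1.63 ± 0.17, 5.06e-07). Kif11 (1.62 ± 0.18), the checkpoint kinase gene Bub1 (1.61 ± 0.18), the centrosomal kinase gene Nek2 (1.58 ± 0.24), the spindle gene Nusap1 (1.57 ± 0.27), Ube2c (1.54 ± 0.25) and Mki67 (1.52 ± 0.19) followed. By role, all 5 centromere and kinetochore genes (median 1.33), all 3 chromosomal passenger genes (median 1.14), both checkpoint kinases (median 1.42), both transcription factors (median 0.82) and all 4 mitotic kinases (median 0.76) were higher. So were 4 of 5 kinesins (median 1.10), 5 of 6 spindle and microtubule genes (median 0.86), and all 3 genes of anaphase and its ubiquitin ligase (median 0.71). Among genes not yet given, Nuf2 was higher by 1.33 ± 0.19, Cenpe, the kinesin that brings chromosomes to the spindle equator, by 0.92 ± 0.21, Kif2c, a kinesin that shortens microtubules, by 1.10 ± 0.17, the chromosome-bound kinesin gene Kif4 by 1.15 ± 0.21 and the kinase gene Melk by 0.78 ± 0.17. Mybl2 was higher by 1.10 ± 0.18 and Foxm1 by 0.53 ± 0.16, the latter passing at an edgeR adjusted p of 0.00823. In 1 fit over all 32 libraries 29 genes were higher, and the calls of Foxm1 (edgeR adjusted p = 0.0655), Prc1 (0.126) and Ttk (0.103) were lost.

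Genes that did not pass were Anln, Dlgap5 and Kif23. Anln was the only 1 of the 35 with a negative log2 difference, -0.55 ± 0.24 (SE, edgeR adjusted p = 0.053), and it passed as lower with DESeq2 (0.036) or without any 1 of VEH 1, VEH 3, MYT 3, MYT 6 and MYT 7 (edgeR adjusted p 0.0124 to 0.045). Dlgap5, which stabilises spindle fibres, had 0.36 ± 0.16 (edgeR adjusted p = 0.0652, and 0.00282 without VEH 4). Kif23, the kinesin of the central spindle that works with RACGAP1, had 0.53 ± 0.23 (edgeR adjusted p = 0.0504, and 0.00707 to 0.046 without VEH 4, MYT 5, MYT 8, MYT 9 or MYT 11). The smallest differences that passed were those of Ttk (0.39 ± 0.15) and Espl1 (0.48 ± 0.17). Both calls were lost without VEH 1, VEH 2 or VEH 3, with edgeR adjusted p of up to 0.109 for Ttk and 0.081 for Espl1. Over all these alternatives, 28 of the 32 calls held throughout.

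Genes of related lists moved in the same direction. Of 72 other G2/M genes 64 were higher and 0 lower (median 1.02), among them Ccnb1 (1.57 ± 0.27), Cdk1 (1.41 ± 0.26) and Plk1 (1.05 ± 0.20), while Ccnb2 had 0.33 ± 0.21 (edgeR adjusted p = 0.178). The extremes of that list were Psrc1 (4.07 ± 0.40), a microtubule regulator, and Cenpk (2.67 ± 0.29) at the top, and Cit (-0.12 ± 0.19) and Bora (-0.04 ± 0.14), which did not pass, at the bottom. Of 36 G1/S genes 32 were higher and 0 lower (median 1.01).

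In the set titled _7, no difference in these genes was detected. None of the 35 passed between M20_7 and VEH_7 by edgeR's test, where 0% of 16699 genes passed. An unadjusted edgeR p under 0.05 was found for 1033 of the 16699 genes and for none of the 35. DESeq2 called 55 genes and 0 of the 35, and edgeR with no filter on low counts called 6 genes and 0 of the 35. Log2 differences ran from -0.06 ± 0.13 (SE) for Cenpf to 0.25 ± 0.21 for Ube2c and 0.25 ± 0.23 for Aurka, with a median of 0.12, against 0.01 over all genes. The estimate was positive for 33 of the 35. The groups overlapped for all 35, as for most genes. Of all genes, 2.98% did not overlap with M20_7 higher and 3.54% with M20_7 lower. Mki67 had 0.03 ± 0.17, Mybl2 0.16 ± 0.19, Ccna2 0.15 ± 0.19 and Anln 0.14 ± 0.13. Of the other G2/M genes 0 of 72 passed by edgeR (1 at an unadjusted p under 0.05, 65 positive) and of the G1/S genes 0 of 36 (0 at an unadjusted p under 0.05, 30 positive).

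Whether the sets differed in this contrast was tested directly. The log2 difference between RP-6306 and vehicle was larger without the suffix than in the set titled _7 for 24 of the 35 genes (edgeR interaction, adjusted p under 0.05) and smaller for 0, with a median difference of 0.93 against 0.01 over all genes. For all genes tested, 36% passed, 17% in the same direction and 18.9% in the other. The largest differences between sets were those of Cenpf (1.78 ± 0.32, edgeR adjusted p = 0.00022), Bub1 (1.58 ± 0.26, 8.64e-05) and Ndc80 (1.57 ± 0.34, 0.00115). All 5 centromere and kinetochore genes, all 3 passenger complex genes and both checkpoint kinases passed, whereas of the 3 anaphase genes only Ube2c did. Those closest to 0 were Dlgap5 (0.24 ± 0.24), Espl1 (0.27 ± 0.26) and Ttk (0.37 ± 0.24), and Anln had -0.69 ± 0.36 (edgeR adjusted p = 0.142). The count was 15 without VEH_7 3 and 16 in 1 fit over all 32 libraries. That fit called 3501 of 18184 genes, and fits without 1 library called 5047 to 6345. Of the 24, 12 passed under every other scaling, filter, tool and fit tried and without any 1 library. Because this test includes MYT and VEH, treatment and tumour make-up cannot be told apart in it either.

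The vehicle groups themselves differed in these genes. Between VEH and VEH_7, which both received vehicle, 16 of the 35 genes were lower in VEH and 0 higher, with a median log2 difference of -0.60 against 0.01 over all genes. Of all genes, 31% passed in this comparison, 15.4% higher and 15.6% lower in VEH. The groups did not overlap, with VEH lower, for 15 of the 35 genes and 20.9% of all genes. Bub1 (-1.52 ± 0.20 (SE), edgeR adjusted p = 0.000781), the kinetochore gene Nuf2 (-1.24 ± 0.19, 0.00172) and Ccna2 (-1.19 ± 0.19, 0.00241) differed most, and Ect2 (-1.15 ± 0.23), Foxm1 (-1.14 ± 0.20) and Mki67 (-0.998 ± 0.23) were also lower. Dlgap5 (0.04 ± 0.26), Cenpa (-0.14 ± 0.21) and Espl1 (-0.14 ± 0.18) were closest to 0 and did not pass. The count of lower genes was 9 without VEH_7 1 or VEH_7 3 and 25 without VEH 4, the VEH tumour with the highest levels. Over all genes, 3227 passed without VEH_7 3 and 4624 without VEH 4, the lowest and highest of these counts. Of the other G2/M genes 17 of 72 were lower, led by Kif15 (-1.43 ± 0.16) and Plk4 (-1.36 ± 0.19), and 0 higher. Set, tumour source and sequencing depth cannot be told apart here, and this comparison shares VEH and VEH_7 with the contrasts above.

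Untreated SPON tumours had higher mitotic gene levels than untreated WT tumours. Of the 35 genes 24 were higher and 0 lower by edgeR's test over 15558 genes, of which 8.38% passed, 4.52% higher and 3.86% lower. All 35 estimates were positive, with a median log2 difference of 1.30 against 0.07 over all genes. The groups did not overlap, with SPON higher, for 19 of the 35 genes and 4.2% of all genes, and with SPON lower for 0 of the 35 and 5.53% of all genes. The largest differences were those of Nek2 (1.76 ± 0.35 (SE), edgeR adjusted p = 0.0143), Bub1b (1.74 ± 0.32, 0.0104) and Ube2c (1.66 ± 0.43, 0.039). Without SPON 5 the difference of Ube2c was 1.13 and its call was lost (edgeR adjusted p = 0.0532). That call was also lost without any 1 of the WT tumours (up to 0.102). Ckap2l, a spindle pole protein, had 1.64 ± 0.24 (edgeR adjusted p = 0.00444), Cdc20 1.56 ± 0.23 (0.00392), Espl1 1.56 ± 0.24 (0.00533) and Nuf2 1.49 ± 0.22 (0.00417). All 3 anaphase genes and all 5 centromere and kinetochore genes were higher, whereas of the 3 passenger complex genes only Cdca8 (1.34 ± 0.24) passed. Summed mesenchymal markers lay at 1179 to 3217 CPM in SPON and 798 to 1836 in WT, and macrophage markers at 294 to 706 and 170 to 333. Their part in the result, and that of the mitochondrial shares and the length trend, was not tested.

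The 11 genes that did not pass included Mki67 (0.87 ± 0.29, edgeR adjusted p = 0.0812), although its SPON and WT values did not overlap. Aurkb (0.55 ± 0.32, 0.288) and Hmmr (0.56 ± 0.39, 0.381), a spindle-binding hyaluronan receptor, had the smallest estimates. Kif20a (1.27 ± 0.51, 0.137) and Prc1 (1.08 ± 0.57, 0.249) had wide errors, with SPON 1 and SPON 5 low in both. The others were Bub1, Birc5, Kif11, Kif23, Dlgap5 and Anln, from 0.98 to 1.14.

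How many of the 35 passed depended on single tumours, and so did the count over all genes. For the 35 the count was 15 without WT 1 or WT 2, 13 without WT 3 or WT 4, and 27 without WT 5, the WT tumour with the highest levels. Over all genes, 1303 passed with all tumours, 506 without WT 4 (the lowest count) and 1887 without SPON 2 (the highest). Without SPON 1 and SPON 5 together, 25 of the 35 passed, 22 of them among the 24, and 1204 of 16293 genes in all. Without those and WT 2, 8 passed, all among the 24, with 267 genes passing in all. Both of these alternatives were chosen after seeing the data. Scaling by total counts alone moved the median over all genes from 0.07 to -0.15 and the share of called genes that were higher from 54.0% to 24.6%. Under that scaling 11 of the 35 were higher (median 1.12) and 0 lower, and of 15558 genes 240 were higher and 737 lower. Cdc20, Cenpa, Ckap2l, Espl1, Kif4, Nek2 and Nuf2 passed under every other scaling, filter and tool tried, without any 1 library and without those 3. Bub1b, Cdca8, Ndc80 and Tpx2 did so too except without SPON 1, SPON 5 and WT 2, where their edgeR adjusted p ran from 0.0524 (Ndc80) to 0.0816 (Tpx2). Of the other G2/M genes 39 of 72 were higher and 0 lower (median 1.17), among them Ccnb1 (1.52 ± 0.25), Cdk1 (1.42 ± 0.24), Plk1 (1.26 ± 0.21), Ccnb2 (1.10 ± 0.27) and, with the largest difference, Troap (2.20 ± 0.29). Of 36 G1/S genes 27 were higher and 0 lower.

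**Figure D4:**
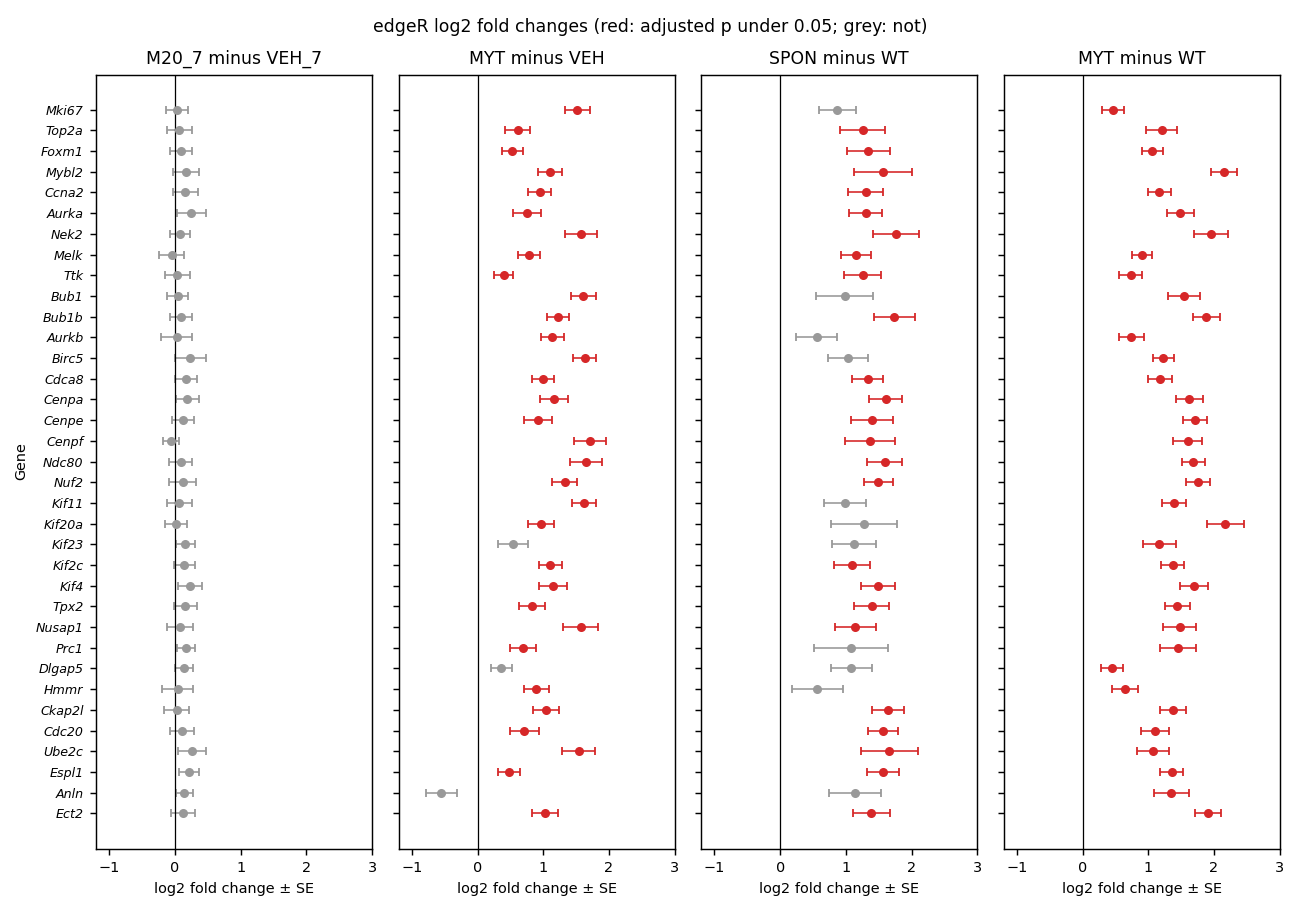
Log2 difference ± SE from edgeR for each of the 35 genes in 4 comparisons, red where the adjusted p is under 0.05. For M20_7 minus VEH_7 0 of 35 are red, for MYT minus VEH 32, for SPON minus WT 24 and for MYT minus WT 35, and Anln is the only gene left of 0 for MYT minus VEH.

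Set against the untreated tumours, MYT tumours had higher mitotic gene levels than WT. They overlapped SPON for all 35 genes, as for all but 2.11% (MYT higher) and 2.38% (MYT lower) of all genes. These comparisons share the MYT tumours with the comparison to VEH, and treatment and tumour source cannot be told apart in them. Against WT, 35 of 35 genes were higher in MYT, where 62.1% of 16150 genes passed, 30% higher and 32.1% lower. The median was 1.37 against -0.01 over all genes, and 23 of the 35 did not overlap, compared with 14.2% of all genes. Kif20a (2.17 ± 0.28, edgeR adjusted p = 2.81e-06), Mybl2 (2.15 ± 0.20, 6.38e-08) and Nek2 (1.95 ± 0.25, 2.79e-06) differed most. Dlgap5 (0.45 ± 0.17, 0.0292), Mki67 (0.46 ± 0.16, 0.0215) and Hmmr (0.65 ± 0.20, 0.0096) differed least. The call of Mki67 was lost without WT 3 or WT 4 (edgeR adjusted p up to 0.0755), and that of Dlgap5 without WT 2, WT 3 or WT 4 (up to 0.0955). Anln was higher in MYT than in WT by 1.35 ± 0.27. Of the other G2/M genes 63 of 72 were higher and 0 lower.

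Between MYT and SPON few of the genes differed. Kif20a was higher in MYT by 0.88 ± 0.29 (SE, edgeR adjusted p = 0.0319), and Dlgap5 (-0.66 ± 0.16, 0.00629) and Ttk (-0.55 ± 0.16, 0.015) were lower, so that 1 gene was higher and 2 lower. Exons of Kif20a overlap those of the antisense gene Cdc23, so its counts are uncertain to that extent. Of 15695 genes 28.5% passed, 9.46% higher and 19.1% lower. All 35 genes overlapped between the groups, as most genes did. Of all genes, 2.11% did not overlap with MYT higher and 2.38% with MYT lower. The median was 0.13 against -0.08 over all genes. After Kif20a the largest estimates were those of Mybl2 (0.56 ± 0.26, edgeR adjusted p = 0.111) and Bub1 (0.54 ± 0.24, 0.102), and Ube2c had -0.61 ± 0.29 (0.12). Scaling by total counts moved the median over all genes to 0.15 and the share of called genes that were higher from 33.1% to 59.9%, and then Kif20a and Ect2 were higher and 0 of the 35 lower. Without SPON 1 and SPON 5, an alternative chosen after seeing the data, only Dlgap5 of the 35 passed, and 4137 of 16149 genes did. Leaving out SPON 1, SPON 3 or SPON 5 alone ended the call of Kif20a (edgeR adjusted p 0.0566 to 0.0728), and leaving out SPON 2 or SPON 5 ended that of Ttk (0.0628 to 0.0841). Without SPON 2, 6 of the 35 genes were higher, and without SPON 4, 5 were. Over all genes, 5997 passed without SPON 4, the most without any 1 library, against 4480 with all tumours. A p that misses the threshold does not show that the groups had equal levels. The SE of these log2 differences ran from 0.14 for Melk to 0.34 for Prc1. Of the other G2/M genes 7 of 72 were higher and 11 lower, among them Pbk (-1.25 ± 0.16), Spc24 (-1.23 ± 0.26) and Ccnb2 (-0.84 ± 0.21).

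Some genes differed from the rest in their pattern over groups. Relative to the mean of the 35 genes in the same tumours, and centred over the 6 groups, Anln stood at 0.77 in VEH_7, 0.80 in M20_7 and 0.84 in VEH on the log2 scale. It stood at -0.76 in MYT, -0.92 in SPON and -0.74 in WT. These are the 3 groups with high mesenchymal and the 3 with high luminal markers, and the part of those cells in the Anln level was not tested. Mki67 stood at 0.84 in WT and -0.59 in VEH, and Ube2c at -0.71 in VEH_7 and 0.78 in SPON. Kif20a was low in SPON (-0.66) and WT (-0.61) and between 0.24 and 0.37 in the other 4 groups.

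Once group means were subtracted, the 35 genes varied together over the 32 tumours. Over 595 pairs the median Pearson correlation of log2 CPM was 0.656, and 591 pairs were above 0, whereas the median over all pairs of 13062 expressed genes was 0.000506. These values are a description, since all genes share the same libraries, depth and scaling. Nusap1 (0.92) and Aurka (0.91) followed the mean of the other members most closely. Ube2c (0.45), Birc5 (0.53), Espl1 (0.57) and Ndc80 (0.59) followed it least. The closest pairs were Aurka with Cdc20 (0.93) and Kif20a with Prc1 (0.92), and the lowest was Prc1 with Ube2c (-0.22). Within the 11 MYT tumours alone, Ube2c followed the other members at 0.94, Tpx2 at 0.97 and Espl1 at 0.28. In the SPON tumours Ube2c departed from the members' mean by 1.497 in SPON 5 and by -1.01 in SPON 4 on the log2 scale, and Prc1 by -1.33 in SPON 5 and 0.92 in SPON 4. The length trend was also of opposite sign in SPON 5 and SPON 4, and its part in these departures was not tested.

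Genes were also ranked by likeness among 11559 expressed genes outside the lists, leaving out unnamed, clone-named, predicted, pseudogene, microRNA and mitochondrially encoded genes by the form of their symbols. Those most like the mean of the 35 over the 32 tumours after subtracting group means were Prr11 (Pearson correlation 0.92), Knstrn (0.90), Sgol2a (0.86), Fancd2 (0.85), Tmpo (0.83), Ticrr (0.83), Fam83d (0.82) and Dek (0.81). Prr11 averaged 42.3 CPM in MYT, 37.3 in VEH, 42.5 in SPON and 23.4 in WT. Sgol2a is the older symbol of a gene meant for the list of other G2/M genes, and it averaged 39.4 CPM in MYT, 12.8 in VEH, 30.4 in SPON and 10.4 in WT.

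The genes lie on 15 chromosomes, with 8 on chromosome 2, and their positions come from GENCODE M21 on GRCm38. Mki67 lies on chromosome 7 from 135689784 to 135716361, Anln on chromosome 9 from 22332012 to 22389188, Ube2c on chromosome 2 from 164769898 to 164778822, Cdc20 on chromosome 4 from 118432901 to 118437352 and Prc1 on chromosome 7 from 80294450 to 80316259. Exons of 12 of the 35 overlap exons of another gene, and no source used here gives the strandedness of the libraries, so reads of the 2 genes cannot be told apart there. The overlap with an antisense gene covers 29.3% of the exon bases of Kif20a (with Cdc23), 22.8% of Ube2c (with Tnnc2), 15.1% of Kif4 (with Pdzd11), 12.5% of Ccna2 (with Exosc9) and 11.1% of Prc1 (with Rccd1). Tnnc2 was at 0 to 2.57 CPM in all groups, far below Ube2c. Cdc23 was at 37.5 to 107 CPM over all tumours, within the range of Kif20a, and its median was 68.1 CPM in SPON and 62.1 in WT. In MYT 2 both Kif4, at 33.4 CPM, and Pdzd11, at 19.4, were the lowest of the MYT tumours. Kif4 also has a pseudogene, Kif4-ps, and its counts are uncertain to that extent.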

How the data were processed

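The deposited table of read counts, with whole numbers for 54532 genes and 33 samples, was used as the authors deposited it. The submitters' processing notes name GRCm38 as build and, as tools, edgeR, HTSeq and STAR (2.7.10a). Library kit, strandedness and annotation release are not given in the sources used here. A deposited table of log2 CPM was not used here. Rows without a symbol (791, holding 0.0482% of the counts) stayed in the fits under their identifiers.

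Samples were grouped by title and treatment, and replicate numbers follow accession order and pair nothing. No 2 libraries of a group agreed within counting noise (90 pairs compared). The p-values reflect spread between tumours as labelled, which may in part be technical. Each comparison was fitted on its own groups by the quasi-likelihood functions of edgeR (version 4.0.16, R 4.3.3) after filterByExpr and TMM scaling, with Benjamini-Hochberg adjustment over all genes tested, a threshold of 0.05, and standard errors from the F statistic. The fit was tested only on independent counts simulated from its own model. That test cannot show how the fit deals with the outlying tumours and the co-variation of genes in the real data. Levels are CPM with TMM factors over the 32 grouped libraries, with a pseudocount of 1 on the log2 scale, and per kilobase of merged exons. Alternatives were DESeq2 size factors, total counts, no filter, DESeq2 1.42.0, limma 3.58.1 voom without and with quality weights, 1 fit over 32 libraries, and fits that each lack 1 library.

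The 35 genes, the lists of 73 other G2/M genes (72 matched) and 36 G1/S genes, the marker lists and the tests were chosen with earlier results of these data known. All 35 genes may be named, with values by tumour or group for 20 of them and, in each comparison, the 3 with the largest and the 3 with the smallest differences. Of the other G2/M genes, Plk1, Ccnb1, Ccnb2, Cdk1 and the extremes were named, and the 8 genes most like the mean of the 35. Genes named besides these were chosen after their values were seen. Promoter windows came from RefSeq.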

Additional observations from a re-analysis of the deposited data

Results flagged for a closer look

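Of 140 sets of 4 or 5 values (each of the 35 genes in the M20_7, VEH, SPON and WT groups), 14 had a tumour far from the others by Dixon's test at the 95% level, where chance gives about 1 in 20. In 10 of them the tumour was WT 5, which was high for Top2a (254 CPM), Aurkb (80.4 CPM), Cenpf (75.04 CPM), Hmmr (67.8 CPM), Anln (62.4 CPM), Kif11 (62.0 CPM), Kif23 (47.0 CPM), Bub1 (31.0 CPM), Melk (24.95 CPM) and Ttk (17.8 CPM). The others were SPON 2 for Mki67 (942 CPM) and Aurkb (101 CPM), SPON 5 for Ube2c (752 CPM) and M20_7 3 for Anln (252 CPM). The genes share their libraries, so these are not independent. SPON 5 was also the tumour with the largest mitochondrial share of counts (23.6%). Its length trend was -0.325. The part of these features in the Ube2c level was not tested.

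The log2 difference between RP-6306 and vehicle differed between the sets for 24 genes by the edgeR interaction test, always in the direction of a larger difference without the suffix. The differences between sets were 1.78 for Cenpf, 1.58 for Bub1, 1.57 for Ndc80, 1.56 for Kif11, 1.51 for Nek2, 1.502 for Nusap1, 1.502 for Mki67, 1.41 for Birc5, 1.30 for Ube2c, 1.22 for Nuf2, 1.14 for Bub1b and 1.12 for Aurkb. They were 1.02 for Ckap2l, 0.99 for Cenpa, 0.97 for Kif2c, 0.96 for Kif20a, 0.95 for Mybl2, 0.93 for Kif4, 0.91 for Ect2, 0.86 for Hmmr, 0.84 for Melk and for Cdca8, 0.81 for Cenpe and 0.80 for Ccna2.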

How the results depend on the processing

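Over the 35 genes, the 7 comparisons and all alternatives, no called value changed sign. Of the values under an alternative, 4681 kept direction and side of the threshold, 200 lost their call, 99 gained one and 95 changed sign without being called on either side. No paired analysis was possible because the labels give no replicate numbers.

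For M20_7 against VEH_7 the genes called were 6 with no filter, 55 with DESeq2 and 0 without any 1 library. For MYT against VEH, 1 of the 35 (Anln) was lower with DESeq2 size factors, DESeq2 and voom without or with weights. Leaving out 1 library gave 0 to 1 lower. For SPON against WT the genes called were 2648 with DESeq2, 977 with total counts and 5472 in 1 fit over 32 libraries. They were 267 without SPON 1, SPON 5 and WT 2, and 506 to 1887 without any 1 library. Of the 35, 30 were higher with DESeq2, 33 in that 1 fit, 11 with total counts, 8 without those 3 libraries, and 13 to 27 without any 1. For the difference between sets, 1 fit over 32 libraries called 3501 genes and 16 of the 35, and 15 to 27 were higher without any 1 library. For VEH against VEH_7 that fit called 2455 genes and 11 of the 35, and 9 to 25 were lower without any 1 library. For MYT against SPON, voom with weights called 2137 genes. Of the 35, the count higher was 2 with DESeq2 size factors, total counts, DESeq2 or 1 fit over 32 libraries, 3 with voom, 0 without SPON 1 and SPON 5, and 0 to 6 without any 1 library. The count lower was 0 with total counts, 1 with weighted voom, 1 without SPON 1 and SPON 5, and 1 to 3 without any 1 library. The causes were not tested.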
